A study of Mus musculus with 27 samples.

Results

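Ribosome-bound RNA of the D1 and D2 projection neurons of the striatum was compared in control mice, which carried no Cre recombinase. The arrays were chosen by their titles: 6 came from mice with the TRAP tag in D1 neurons (2 saline, 4 cocaine) and 7 from mice with the tag in D2 neurons (3 saline, 4 cocaine), 13 of the 27 arrays in the series. Of 18193 genes with a probe set, 12017 exceeded 6 (log2) in 3 or more of the arrays and were tested. The other 14 arrays came from mice that lacked the histone methyltransferase G9a in the tagged neurons, and they enter here only to estimate the spread and for a comparison of the same difference in separate mice.

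D1 controls were Drd1-TRAP; G9a fl/fl and D2 controls were Drd2-TRAP; G9a fl/fl, so that both groups carried floxed copies of G9a (gene Ehmt2) and differed in the receptor whose promoter drove the tag. Subtype and transgenic line go together in these arrays, and their parts in a difference cannot be told apart. The male mice were 2 to 5 months old, on a mixed C57BL/6 and 129/Sv background with 2 generations of backcrossing to C57BL/6, and received 8 daily injections of saline or of cocaine at 20 mg/kg/day, with tissue taken 2 h after the last. In TRAP, translating ribosome affinity purification, a ribosomal protein fused to green fluorescent protein is expressed under the control of a cell type's gene, and the antibody that recovers the ribosomes brings their mRNA with them. The label therefore follows the activity of the receptor's promoter in whichever cells use it, and RNA that sticks without the tag is also recovered. The replicates are mice, and p-values measure the spread between them.

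Medium spiny neurons make up most of the striatum. D1 neurons project to the basal ganglia output nuclei and carry the D1 receptor, which raises cAMP, together with dynorphin and substance P. D2 neurons project to the external globus pallidus and carry the D2 receptor, which lowers cAMP, together with enkephalin. Both types are GABAergic and share most of their signalling proteins, among them the phosphatase inhibitor DARPP-32 (Ppp1r1b).

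The labels were checked against 6 marker genes. Drd1, the D1 receptor, had log2 levels from 12.12 to 12.69 (median 12.60) in the D1 arrays and from 9.71 to 10.50 (median 9.79) in the D2 arrays. Isl1, a LIM homeodomain transcription factor of D1 neurons, lay between 10.04 and 10.87 in D1 arrays and between 6.52 and 7.58 in D2 arrays. Pdyn, the dynorphin precursor, lay between 9.20 and 9.54 in D1 arrays and between 5.56 and 6.36 in D2 arrays. Each of these genes was higher in every D1 array than in any D2 array. Drd2, the D2 receptor, had log2 levels from 6.33 to 7.05 in D1 arrays and from 12.94 to 13.60 in D2 arrays. Gpr6, an orphan receptor of D2 neurons, lay between 7.71 and 7.98 in D1 arrays and between 12.46 and 13.11 in D2 arrays. Penk, the enkephalin precursor, lay between 11.03 and 11.50 in D1 arrays and between 13.67 and 14.05 in D2 arrays. These last genes were higher in every D2 array, so the 13 labels match their markers. D1 cocaine replicate 3 had the lowest Drd1 and Isl1 of the D1 arrays.

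**Figure D1:**
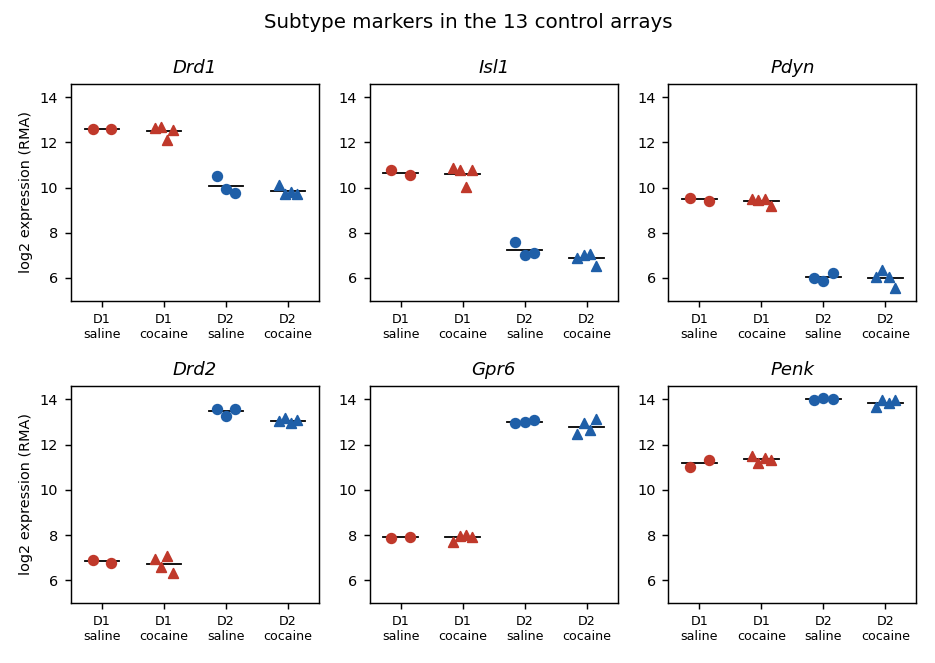
Log2 level (vertical axis) of Drd1, Isl1, Pdyn, Drd2, Gpr6 and Penk in each control array by subtype and drug, with the group mean as a line. The 6 D1 arrays (red) and the 7 D2 arrays (blue) do not overlap for any of these genes.

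The D1 minus D2 difference of a gene is a log2 difference with the drugs weighted equally, fitted in limma with its standard error (SE), and a gene is called higher or lower when its p-value, adjusted by Benjamini-Hochberg over the 12017 genes, is under 0.05. By this rule 3480 genes (29%) were called, 1428 higher in D1 (11.9%) and 2052 lower (17.1%). These shares are the background for each list count over both drugs given below. Most of the called differences were small. At 1 log2 or more, 139 genes were higher (1.16%) and 81 lower (0.674%), together 1.83% of genes tested, at 2 or more 22 and 13, at 3 or more 6 and 5, and at 4 or more 1 and 3. The control arrays of the subtypes did not overlap for 1041 genes (8.66%), with D1 above for 532 (4.43%) and D2 above for 509 (4.24%). Without D1 saline replicate 2, one of only 2 arrays in its group, 2310 genes were called, 946 higher and 1364 lower. With control arrays alone 2983 genes were called, 1256 higher and 1727 lower. Calls higher in D1 made up 41% of all calls in the main fit, 52.6% after cyclic loess and 60.6% when a fold of at least 1.5 was required.

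Fewer cells of a type and less RNA per cell cannot be told apart in these bulk samples. The RNA quality measure, a 3' minus 5' log2 difference of control probe sets, had a mean of 2.29 in D1 arrays (SD 0.35, n = 6) and 2.20 in D2 arrays (SD 0.177, n = 7), a difference of 0.09 (exact permutation test, 2-sided, p = 0.624). D1 cocaine replicate 3 stood apart, with a mean correlation of 0.974 with the other D1 control arrays against 0.986 to 0.989 for the rest. It and D2 cocaine replicate 3 held high Ttr, a choroid plexus transcript (9.67 and 11.40), and without both arrays 1593 genes were higher in D1 and 2298 lower. Ttr did not pass (0.11, adjusted p = 0.948).

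**Figure D2:**
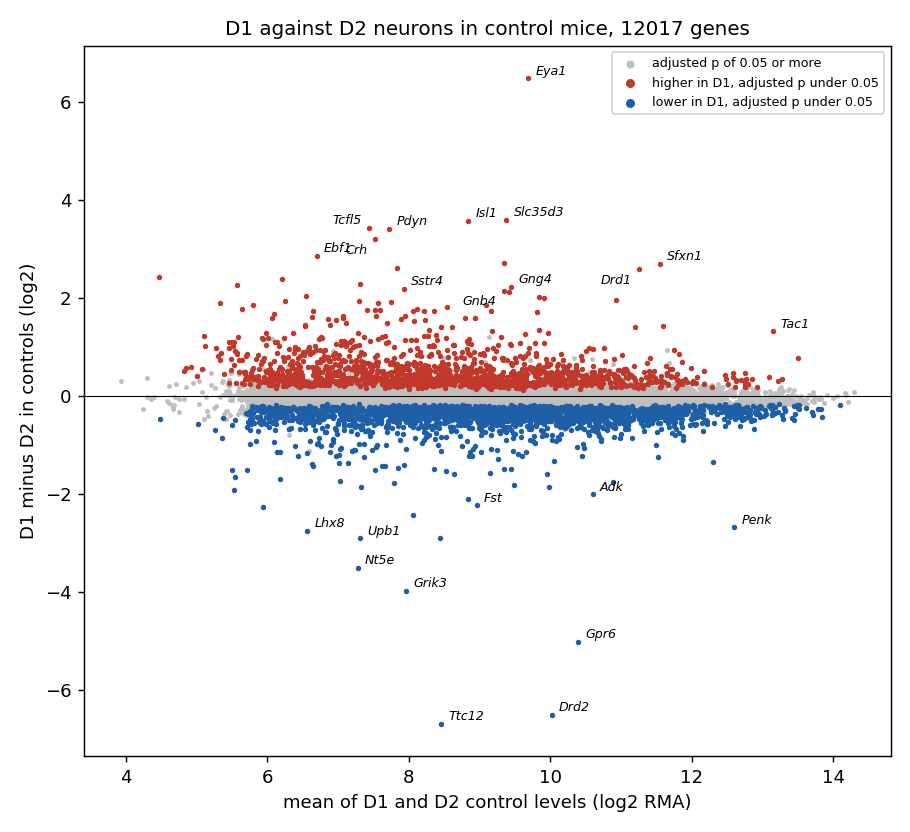
D1 minus D2 difference in controls (vertical axis, log2) against the mean of the D1 and D2 levels (horizontal axis, log2) for the 12017 genes tested. Genes called higher in D1 are red (1428), genes called lower are blue (2052), and Eya1, Ttc12 and Drd2 lie farthest from 0.

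Eya1, a transcriptional coactivator with phosphatase activity, had log2 levels from 12.09 to 13.31 (median 13.07) in D1 arrays and from 6.00 to 6.79 (median 6.45) in D2 arrays, a 90.2-fold difference (log2 6.49, SE 0.184, adjusted p = 3.76e-19). Its other probe set above the filter differed by 2.35 in the same direction. Slc35d3, of the nucleotide sugar transporter family, lay between 10.46 and 11.53 in D1 arrays and between 7.32 and 8.35 in D2 arrays (3.60, SE 0.166, adjusted p = 1.24e-14). Crh, the corticotropin-releasing hormone precursor, lay between 8.71 and 9.87 in D1 arrays and between 5.55 and 6.14 in D2 arrays (3.21, SE 0.215, adjusted p = 2.49e-11). For each of these genes the subtypes did not overlap. Tac1, the substance P precursor, was high in both subtypes, from 13.58 to 14.06 in D1 and from 12.05 to 12.77 in D2 arrays, and differed by 1.33 (SE 0.0946, adjusted p = 8.12e-11). Of 9 D1 markers, 8 passed the filter and these were higher in D1; Chrm4, the M4 muscarinic receptor, was at or under 6 in every control array. Of 11 D2 markers, 8 had a probe set, and these passed the filter and were lower in D1. Both lists were known from earlier results, and membership fixes their direction.

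On the D2 side, Nell1, a secreted glycoprotein, lay between 6.58 and 7.45 in D1 arrays and between 9.60 and 10.21 in D2 arrays (-2.89, SE 0.135, adjusted p = 1.45e-14). Ptprm, a receptor tyrosine phosphatase, lay between 6.61 and 7.22 in D1 arrays and between 9.0 and 9.40 in D2 arrays (-2.43, SE 0.0914, adjusted p = 1.62e-16). Upb1, an enzyme of pyrimidine breakdown, lay between 5.60 and 6.20 in D1 arrays and between 8.58 and 8.88 in D2 arrays (-2.89, SE 0.0905, adjusted p = 2.97e-18). The subtypes did not overlap for these genes. Probe sets of a gene disagreed for the kainate receptor subunit Grik3, whose representative probe set differed by -3.97 and whose other probe set by 0.00, and for Plxdc1, at -2.10 and 0.09. Some other genes named below also had a probe set above the filter with a far smaller difference than the representative one. Among them were Kcnc4 (0.02 beside 1.09), Nr4a3 (0.02 beside 1.09) and Nrp1 (-0.01 beside -0.94). Rgs20 (0.06 beside 0.94) and Cckbr (0.13 beside 1.01) were others.

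The contrast came close to presence against absence for 5 genes, which lay at or under 6 in every control array of one subtype and above 7 in every array of the other. On the D1 side these were Ebf1, a helix-loop-helix transcription factor (7.05 to 8.77 in D1 arrays, 4.99 to 5.61 in D2 arrays), and Dlk1, a membrane relative of Notch ligands (7.15 to 7.92 and 4.94 to 5.74). On the D2 side they were Lhx8, Nt5e and Ttc12, whose D1 values ended at 5.57, 5.94 and 5.59 and whose D2 values began at 7.38, 8.79 and 11.49. At such low levels an array reads mostly background, so the log2 difference can understate the contrast. These levels are of each gene's representative probe set. Another probe set above the filter differed by only -0.36 for Nt5e and 0.35 for Dlk1. In the mutant arrays, which are separate mice, the same pattern held for Ebf1, Lhx8, Nt5e and Ttc12 and not for Dlk1, which reached 7.05 in a D2 mutant array.

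Genes next to the receptors were read because the tag's transgene is built on a large genomic fragment around each receptor gene. Sfxn1, a mitochondrial serine transporter and the next gene with a probe set after Drd1 on chromosome 13, lay between 12.63 and 13.19 in D1 arrays and between 10.03 and 10.43 in D2 arrays (2.71, SE 0.0829, adjusted p = 2.14e-18). Ttc12, a tetratricopeptide repeat gene next to Drd2 on chromosome 9, lay between 4.88 and 5.59 in D1 arrays and between 11.49 and 12.11 in D2 arrays (-6.69, SE 0.131, adjusted p = 8.71e-23). Both stood as far from 0 as the receptor genes themselves, Drd1 at 2.6 and Drd2 at -6.50. The next genes farther out did not pass: Hrh2, a histamine receptor, differed by 0.19 (adjusted p = 0.0698, with calls without D1 cocaine replicate 4, D2 cocaine replicate 1 or D2 saline replicate 1, at 0.22 to 0.23) and Ncam1, a cell adhesion molecule, by 0.01 (adjusted p = 0.953). On the other side of the receptors the nearest tested genes, E130119H09Rik by Drd1 (-0.02, adjusted p = 0.896) and Zw10 by Drd2 (-0.04, adjusted p = 0.656), did not pass. Transcripts of a transgene copy and of the endogenous gene cannot be told apart on these arrays.

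Among peptide precursors, 17 of 28 with a probe set passed the filter, and 8 were higher in D1, 4 lower and 5 did not pass (median 0.18, against -0.03 over all genes tested). Besides Pdyn, Crh and Tac1, the secretogranin gene Scg2 lay between 10.37 and 10.85 in D1 arrays and between 8.99 and 9.35 in D2 arrays, without overlap (1.35, SE 0.0996, adjusted p = 1.65e-10). Cck, the cholecystokinin precursor, overlapped between the subtypes, from 8.19 to 9.98 and from 7.58 to 8.39, and its call (1.04, adjusted p = 0.0201) ended without D1 saline replicate 2 (0.64, adjusted p = 0.241). Sst, the somatostatin precursor (0.55), and Npy, the neuropeptide Y precursor (0.38), also lost their calls without that array (0.42, adjusted p = 0.0768, and 0.25, adjusted p = 0.265). Npy did so without D1 cocaine replicate 4, D2 saline replicate 2 or D2 saline replicate 3 as well. Without D1 saline replicate 2, 5 of the 17 were higher in D1. Lower in D1 besides Penk were the neurotensin precursor Nts and the CART precursor Cartpt. Nts overlapped, from 6.29 to 7.74 in D1 and from 7.06 to 9.19 in D2 arrays (-1.5, SE 0.34, adjusted p = 0.00161), and Cartpt differed by -0.67 (adjusted p = 1.05e-04).

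Opioid receptors followed no single direction. Oprd1, the delta receptor, lay between 4.42 and 5.21 in D1 arrays and between 6.39 and 7.41 in D2 arrays (-2.25, SE 0.213, adjusted p = 1.51e-08). Oprk1, the kappa receptor that dynorphin activates, was lower in D1 by a small margin (-0.41, adjusted p = 0.00274), and Oprm1, the mu receptor, did not pass (-0.02, SE 0.103, adjusted p = 0.913). Oprl1, the nociceptin receptor, was higher in D1 (0.33, adjusted p = 0.0264), a call lost without D1 cocaine replicate 4, D1 saline replicate 1, D1 saline replicate 2 (0.35, adjusted p = 0.0663), D2 cocaine replicate 2 or D2 saline replicate 2.

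Of 25 other G protein coupled receptors tested, 7 were higher in D1, 7 lower and 11 did not pass (median 0.08). Over all genes tested 11.9% were higher and 17.1% lower. Sstr4, a somatostatin receptor that signals through inhibitory G proteins, lay between 8.86 and 9.19 in D1 arrays and between 6.54 and 7.04 in D2 arrays (2.19, SE 0.102, adjusted p = 1.45e-14). Sstr2, of the same family, was also higher in D1 without overlap (1.76, SE 0.176, adjusted p = 3.8e-08). Higher in D1 were Adra2c, an adrenergic receptor (1.23), Cckbr, a cholecystokinin receptor (1.01), and Npy2r, a neuropeptide Y receptor (0.99). Npy2r was near background in both subtypes, at 5.07 to 6.06 in D1 and 4.52 to 5.13 in D2 arrays. Lower in D1 were the orphan receptor Gpr149 (-1.76), the histamine H3 receptor Hrh3 (-1.05) and the CRH receptor Crhr1 (-0.58). Of 8 serotonin receptors tested 2 were higher, 3 lower and 3 did not pass. Htr4, which couples to stimulatory G proteins, lay between 6.25 and 7.65 in D1 arrays and between 8.29 and 8.89 in D2 arrays (-1.47, SE 0.131, adjusted p = 5.18e-09). Htr2c, which couples to phospholipase C, differed by -1.21 (adjusted p = 9.4e-10), without overlap. With the mean of each gene's probe sets, 0 of the serotonin receptors were higher and 2 lower in limma's test.

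Of 8 genes of adenosine handling tested, none of them a receptor, Nt5e and Adk were lower in D1. Nt5e, the ectonucleotidase that makes extracellular adenosine from AMP, had a median of 5.42 in D1 and 8.90 in D2 arrays (-3.50, SE 0.13, adjusted p = 1.31e-16). Adk, adenosine kinase, which returns adenosine to AMP inside the cell, lay between 9.47 and 9.85 in D1 arrays and between 11.38 and 11.81 in D2 arrays (-2.0, SE 0.104, adjusted p = 1.62e-13). The other 6, the enzyme genes Adal, Entpd1, Entpd2 and Entpd3 and the transporter genes Slc29a1 and Slc29a2, did not pass.

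The machinery downstream of dopamine receptors differed subunit by subunit. Of 46 genes of G protein, cAMP and DARPP-32 signalling tested, 7 were higher in D1, 15 lower and 24 did not pass (median -0.13, against -0.03 over all genes). Gnai1, an inhibitory alpha subunit, lay between 12.01 and 12.70 in D1 arrays and between 10.66 and 11.15 in D2 arrays (1.45, SE 0.11, adjusted p = 2.84e-10). Gng4, a gamma subunit, lay between 10.39 and 10.81 in D1 arrays and between 7.99 and 8.69 in D2 arrays (2.24, SE 0.144, adjusted p = 1.21e-11), with 2 of its 3 probe sets in this direction and the other at -0.04. Gnb4, a beta subunit, lay between 10.06 and 10.66 in D1 arrays and between 8.11 and 8.39 in D2 arrays (2.16, SE 0.17, adjusted p = 5.37e-10). Gng4 and Gnb4 are not among the 46 genes counted here and were named for the size of their difference in these data. None of Gnai1, Gng4 and Gnb4 overlapped between subtypes. Gng2, another gamma subunit, did overlap (6.60 to 9.81 and 6.34 to 7.52), and its call (1.58, adjusted p = 0.00749) ended without D1 saline replicate 2 (1.02, adjusted p = 0.138).

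Other G protein subunits were lower in D1, those of stimulatory signalling and others. Gnas, the stimulatory alpha subunit, had a median of 10.64 in D1 arrays, all of which lay below the D2 arrays, at 11.35 to 11.52 (-0.85, SE 0.183, adjusted p = 9.82e-04). Gnal, the olfactory-type alpha subunit that couples striatal D1 receptors to adenylyl cyclase, overlapped and differed by -0.35 (adjusted p = 0.00362). Gng7, its gamma partner, lay between 11.24 and 11.57 in D1 arrays and between 11.67 and 12.39 in D2 arrays (-0.67, SE 0.0875, adjusted p = 2.86e-06). Gnao1, an alpha subunit of the inhibitory family, was also lower in D1 by its representative probe set (-0.61, adjusted p = 0.00212), while its other probe sets did not share the sign and reached 0.06. Lower too were the beta subunits Gnb5 (-0.48) and Gnb1 (-0.73, adjusted p = 0.00319). The call of Gnb1 ended when its probe sets were averaged (-0.25, adjusted p = 0.0731).

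Of the calmodulin-dependent phosphodiesterases, Pde1a and Pde1c were higher in D1 and Pde1b did not pass (-0.18, adjusted p = 0.0918), although it was lower without D2 cocaine replicate 1 (-0.22, adjusted p = 0.0379). Pde1a lay between 8.31 and 9.49 in D1 arrays and between 6.81 and 7.89 in D2 arrays (1.57, SE 0.192, adjusted p = 1.18e-06), and Pde1c differed by 1.36 (SE 0.104, adjusted p = 2.83e-10). The subtypes did not overlap for Pde1a or Pde1c. Rasgrf2, a calcium-responsive exchange factor for Ras, lay between 10.43 and 11.07 in D1 arrays and between 7.43 and 8.41 in D2 arrays (2.72, SE 0.119, adjusted p = 5.11e-15). Adcy5, the main striatal adenylyl cyclase (-0.14, adjusted p = 0.264), and Pde10a, a phosphodiesterase abundant in both neuron types (-0.13, adjusted p = 0.351), did not pass. Ppp1r1b was lower in D1 by -0.41 (SE 0.0828, adjusted p = 6.24e-04), and the striatal phosphatase Ptpn5 by -0.52. RGS proteins, which speed the shut-off of G proteins, had 16 members tested. Of these 3 were higher in D1, 2 lower and 11 did not pass, beside 11.9% and 17.1% of all genes. The called ones included Rgs20 (0.94), Rgs6 (0.87) and Rgs10 (-0.69). The lower count was 1 without D1 cocaine replicate 1, D1 saline replicate 1 or 2, D2 cocaine replicate 2, or D2 saline replicate 1 or 2.

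**Figure D3:**
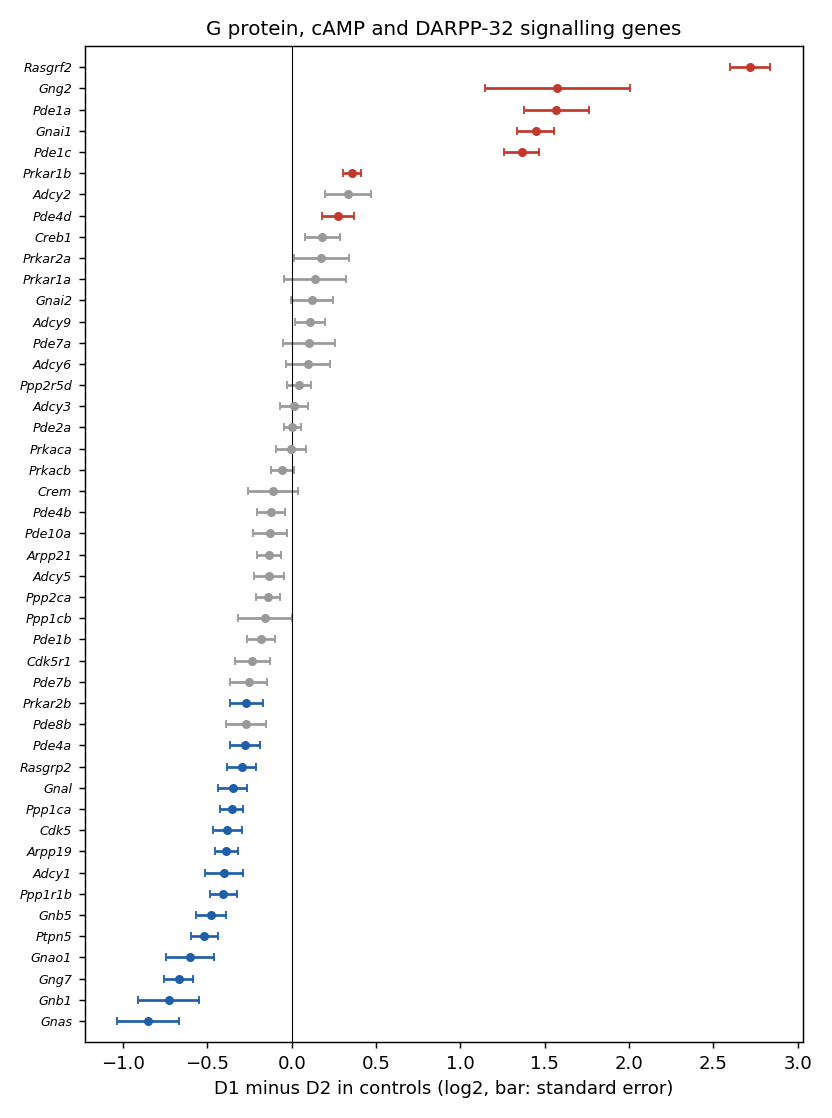
D1 minus D2 difference in controls (horizontal axis, log2, with SE bars) of the 46 tested genes of G protein, cAMP and DARPP-32 signalling. The 7 genes called higher in D1 are red, with Rasgrf2 at 2.72, the 15 called lower are blue, down to Gnas at -0.85, and the 24 that did not pass are grey.

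Of 46 striatal transcription factors tested, 12 were higher in D1, 10 lower and 24 did not pass (median 0.05), beside 11.9% and 17.1% of all genes. Zfp521, a zinc finger protein, lay between 9.08 and 9.29 in D1 arrays and between 6.20 and 6.82 in D2 arrays (2.61, SE 0.0623, adjusted p = 7.67e-21). Tcfl5, a helix-loop-helix factor, lay between 8.48 and 10.14 in D1 arrays and between 5.19 and 6.16 in D2 arrays (3.44, SE 0.28, adjusted p = 9.96e-10). Ikzf1, a zinc finger factor, lay between 6.67 and 7.78 in D1 arrays and between 4.89 and 5.63 in D2 arrays (1.94, SE 0.166, adjusted p = 2.51e-09). The subtypes did not overlap for these factors, nor for the orphan nuclear receptor Nr2f1 (1.5) and the forkhead factor Foxp2 (0.97). On the D2 side Meis1, a homeodomain factor, had a median of 8.32 in D1 arrays, which reached 8.50, and lay between 9.33 and 9.81 in D2 arrays (-1.22, SE 0.0969, adjusted p = 6.15e-10). Sox4 (-0.97) and the retinoid receptor Rxrg (-0.69) were also lower in D1 without overlap. Bcl11b (-0.05, adjusted p = 0.7) and Foxp1 (-0.17, adjusted p = 0.133), factors of both neuron types, did not pass. Foxp1 was called lower without D1 cocaine replicate 1 (-0.21, adjusted p = 0.0393) and with averaged probe sets (-0.25, adjusted p = 0.025).

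Some of the called factors are also markers of other cell types. Lhx8 (-2.75, adjusted p = 3.53e-12) belongs to cholinergic interneurons, and of 10 markers of these cells 5 were tested, 1 higher in D1 and 4 lower. Chat, Slc5a7, Gbx2, Zic4 and Tacr1 were at or under 6 in every control array, and the list's mean level ran from 5.92 to 6.16 in D1 and from 6.72 to 7.46 in D2 arrays. Slc18a3, the acetylcholine vesicle transporter, reached 6.4 in D2 arrays (-0.85, adjusted p = 7.79e-04), and the endopeptidase Ecel1 differed by -1.21. The part of these cells in the D2 values was not tested. Of 9 tested markers of GABAergic interneurons, Npy among them, 4 were higher in D1, 0 lower by limma and 5 did not pass. Of 5 tested markers of midbrain dopamine neurons 2 were higher, 1 lower and 2 did not pass. The part of these 2 cell types was not tested either.

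Neurod6, a helix-loop-helix factor of cortical excitatory neurons, ran from 3.13 to 7.66 in D1 arrays and from 2.97 to 3.49 in D2 arrays (2.43, adjusted p = 0.00613), a call that was lost when D1 saline replicate 2 was left out (1.52, adjusted p = 0.132). Of 8 tested markers of cortical excitatory neurons 6 were higher in D1 and 2 did not pass (median 0.54), and without that array 3 were higher. Nrn1 (1.59) and the vesicular glutamate transporter Slc17a6 (1.12) were among the 6 higher in D1. Slc17a6 is not particular to cortical neurons, as other excitatory neurons carry it too. The list's mean level ran from 6.84 to 8.04 in D1 and from 6.50 to 6.81 in D2 arrays, while Slc17a7, Neurod1, Emx2 and Fezf2 were at or under 6 in every control array. Neurod6 was at 3.48 and 7.11 in the D1 saline arrays and at 6.19, 7.32, 3.13 and 7.66 in the D1 cocaine arrays, so that saline replicate 2 and cocaine replicates 2 and 4 were highest. This order was looked for in other genes after the values were seen. The same 3 arrays were the highest D1 arrays for 734 of all genes tested (6.11%), for 212 of the 1428 genes higher in D1 (14.8%) and for 57 of the 2052 lower genes (2.78%). Among genes higher in D1 described elsewhere these included Cck, Npy, Cckbr, Gng2, Gnb4, Pde1a, Nr4a2, Nr2f1, Kcnc4, Gfra1, Dner, Gja1 and Sfxn1, and among lower genes Gnas, Adk, Nell1, Gpr149 and Grik3. The part of cortical RNA in these values was not tested.

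Glial markers were also read. Of 7 tested astrocyte markers 2 were higher in D1, Aldoc (1.05) and Gja1 (0.60, lost without D1 saline replicate 2 at 0.39, adjusted p = 0.204), and 4 were higher without the arrays with high Ttr. Of 13 tested oligodendrocyte markers 7 were lower in D1 and 6 did not pass, with Mbp at -0.57 (lost without D1 saline replicate 2 at -0.53, adjusted p = 0.0597), Mag at -0.44 and Ugt8a at -0.98, and without D1 saline replicate 2 the list had 4 lower. The mean level of the astrocyte list ran from 7.54 to 8.13 in D1 and from 6.97 to 7.63 in D2 arrays, and that of the oligodendrocyte list from 6.99 to 7.38 and from 6.86 to 7.68. Of the tested markers of microglia (3), endothelial and mural cells (5) and choroid plexus (4), 0 were called by limma, and 1 microglial gene had an unadjusted p under 0.05. That list had 1 lower without D1 cocaine replicate 4 or D2 saline replicate 1.

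Activity-induced genes are switched on within minutes to hours of strong input. Of 30 tested, of 39 with a probe set, 15 were higher in D1, 0 were lower by limma (2 at an unadjusted p under 0.05) and 15 did not pass (median 0.47, against -0.03 over all genes). Without D1 cocaine replicate 1, D1 saline replicate 2 or D2 cocaine replicate 1, 1 was lower. Fos had log2 levels of 9.42 and 9.02 in the D1 saline arrays, 6.49, 6.63 and 7.42 in the D2 saline arrays, 11.67, 10.98, 10.15 and 10.60 in the D1 cocaine arrays and 9.5, 9.51, 9.96 and 8.93 in the D2 cocaine arrays. D1 arrays lay above D2 arrays within each drug, while D1 saline and D2 cocaine arrays overlapped (1.87 over both drugs, SE 0.317, adjusted p = 8.85e-05). Under saline Fos differed by 2.37 (adjusted p = 0.00196) and under cocaine by 1.38 (adjusted p = 0.0137), and the difference between the drugs did not pass.

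Nptx2, a secreted pentraxin that gathers glutamate receptors, lay between 6.97 and 8.24 in D1 arrays and between 5.75 and 6.35 in D2 arrays, without overlap (1.46, SE 0.108, adjusted p = 1.65e-10). Dusp4, a phosphatase of MAP kinases, lay between 6.08 and 7.46 and between 4.79 and 5.76 (1.20, SE 0.162, adjusted p = 5.03e-06). Nuclear receptors of the Nr4a family overlapped between subtypes. Nr4a1 lay between 9.90 and 11.78 in D1 arrays and between 7.88 and 10.37 in D2 arrays (1.73, SE 0.338, adjusted p = 4e-04), and Nr4a3 between 9.52 and 11.48 and between 8.28 and 10.14 (1.09, SE 0.207, adjusted p = 3.05e-04). Nr4a2 spread widely among D1 arrays, at 6.57 and 10.16 under saline and 8.01, 10.28, 5.37 and 10.60 under cocaine, against 5.32 to 6.82 in D2 arrays. The D1 arrays took the same order for Nr4a2 as for the cortical marker Neurod6. The Nr4a2 call (2.3, SE 0.806, adjusted p = 0.0341) ended without D1 saline replicate 2 (1.4, adjusted p = 0.31), D1 cocaine replicate 2, D1 cocaine replicate 4, D2 cocaine replicate 2 or D2 saline replicate 2.

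Under saline 4 of the 30 activity-induced genes were higher in D1 and under cocaine 13, beside 4.93% and 11.1% of all genes. For the difference between the drugs 0 passed in limma, and 2 passed without D1 cocaine replicate 3 or D2 cocaine replicate 4. At an unadjusted p under 0.05 there were 5, beside 1596 of all 12017 genes tested. The saline count was 2 without D1 saline replicate 1 or D1 saline replicate 2, 7 without D1 cocaine replicate 3 and 8 without the arrays with high Ttr. The cocaine count was 8 with RNA quality as a covariate.

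**Figure D4:**
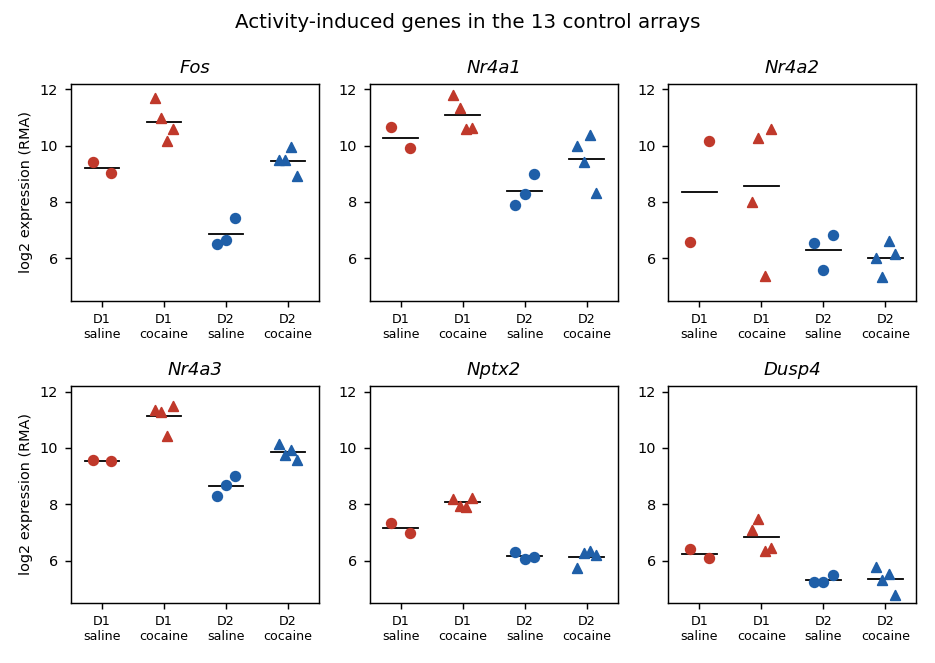
Log2 level (vertical axis) of Fos, Nr4a1, Nr4a2, Nr4a3, Nptx2 and Dusp4 in each control array by subtype and drug, with the group mean as a line. Nptx2 and Dusp4 separate the 6 D1 arrays from the 7 D2 arrays, and Nr4a2 ranges from 5.37 to 10.60 among D1 arrays.

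Many activity-induced genes answer to cAMP through the factor CREB, whose full element is TGACGTCA and whose core is TGACG. Promoter windows of 300 bases around each gene's start were read from RefSeq (GRCm38.p6) and searched on both strands, with the full element also counted as a core match on each strand. The core was added after the full element had been searched. Of all 32851 windows, 1.79% held the full element, 20.8% the core and 0.231% at least 4 cores. The windows of the Nr4a genes each held 4 cores and no full element and are shown with the cores in capitals, for Nr4a1 (chr15:101266596-101266895, + strand), Nr4a2 (chr2:57123954-57124253, - strand) and Nr4a3 (chr4:48045055-48045354, + strand).
Nr4a1: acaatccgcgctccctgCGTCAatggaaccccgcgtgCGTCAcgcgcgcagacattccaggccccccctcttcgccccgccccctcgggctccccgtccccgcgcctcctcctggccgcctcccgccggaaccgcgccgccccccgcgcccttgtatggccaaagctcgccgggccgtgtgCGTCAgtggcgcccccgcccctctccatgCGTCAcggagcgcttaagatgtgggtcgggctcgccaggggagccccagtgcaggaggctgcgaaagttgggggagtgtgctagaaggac
Nr4a2: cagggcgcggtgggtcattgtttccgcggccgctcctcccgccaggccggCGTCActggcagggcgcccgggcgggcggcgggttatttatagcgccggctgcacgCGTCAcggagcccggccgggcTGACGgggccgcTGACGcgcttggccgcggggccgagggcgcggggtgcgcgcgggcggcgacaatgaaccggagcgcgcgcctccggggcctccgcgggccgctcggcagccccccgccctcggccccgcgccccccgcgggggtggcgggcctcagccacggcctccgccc
Nr4a3: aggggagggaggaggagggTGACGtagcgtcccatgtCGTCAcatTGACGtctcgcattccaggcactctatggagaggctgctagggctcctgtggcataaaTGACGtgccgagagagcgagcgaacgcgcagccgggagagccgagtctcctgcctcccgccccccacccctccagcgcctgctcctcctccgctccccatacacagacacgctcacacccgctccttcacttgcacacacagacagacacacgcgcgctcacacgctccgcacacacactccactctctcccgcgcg

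Over the list the motif did not separate the genes that were called. The core was present for 8 of 12 genes higher in D1 that had a window and for 7 of 10 that did not pass, beside 35.3% of the 9709 tested genes with a window. The full element was present for 0 of those 12 and 3 of those 10, beside 3.53% of tested genes. The window of Gpr6, which was higher in D2 neurons, held the full element, in capitals below (chr10:41072241-41072540, - strand). This gene was picked singly, and the element was not counted over genes higher in D2. A match describes the letters and not a bound site.
Gpr6: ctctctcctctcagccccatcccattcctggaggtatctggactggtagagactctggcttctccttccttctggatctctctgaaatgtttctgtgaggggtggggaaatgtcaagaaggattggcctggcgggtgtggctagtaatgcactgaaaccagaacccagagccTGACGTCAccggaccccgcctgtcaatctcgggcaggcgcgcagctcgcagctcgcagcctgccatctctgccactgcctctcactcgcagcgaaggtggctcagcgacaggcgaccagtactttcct

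Ion channels and receptors for fast transmitters had calls in both directions. Of 19 glutamate receptor genes tested 5 were higher in D1, 3 lower and 11 did not pass. Of 9 GABA-A receptor subunits 2 were higher, 2 lower and 5 did not pass. Over all genes tested 11.9% were higher and 17.1% lower. Grin2b, an NMDA receptor subunit, lay between 9.44 and 10.01 in D1 arrays and between 8.79 and 9.29 in D2 arrays (0.78, SE 0.146, adjusted p = 2.66e-04), and the call ended when the probe set with the largest variance stood for the gene (0.61, adjusted p = 0.0635). Gabrb1, a GABA-A receptor subunit, lay between 10.85 and 11.23 in D1 arrays and between 9.84 and 10.23 in D2 arrays (0.93, SE 0.0662, adjusted p = 7.7e-11). The same Gabrb1 difference was -0.14 (adjusted p = 0.075) in the mutant arrays, and the change between genotypes was not tested. Gad2, which makes GABA, was higher in D1 (0.55, adjusted p = 2.55e-04), and the call ended with the probe set of largest variance (0.30, adjusted p = 0.329).

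Of 51 potassium channel genes tested 11 were higher in D1, 8 lower and 32 did not pass, and without D1 saline replicate 2 the lower ones numbered 4. Kcnc4, a voltage-gated potassium channel subunit, lay between 7.17 and 8.26 in D1 arrays and between 6.26 and 6.80 in D2 arrays (1.09, SE 0.173, adjusted p = 4.17e-05). Kcnk2, a leak channel, lay between 10.89 and 11.60 and between 12.15 and 12.56 (-0.89, SE 0.109, adjusted p = 1.11e-06). Of 30 sodium, calcium and HCN channel genes 4 were higher, 7 lower and 19 did not pass. The background for both channel lists is 11.9% higher and 17.1% lower over all genes tested. The higher count was 2 without D1 saline replicate 1, D1 saline replicate 2 or D2 saline replicate 2, and the lower count was 2 without D1 saline replicate 2 and 4 without D2 saline replicate 3. Lower genes included the sodium channel subunit Scn3b at -0.84 (adjusted p = 2.98e-08) and the calcium channel subunit Cacnb2 at -0.61 (adjusted p = 0.00347).

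Guidance and adhesion molecules, which steer axons and hold synapses, also had calls in both directions, beside 11.9% higher and 17.1% lower over all genes. Of 27 semaphorins, plexins and neuropilins tested 9 were higher in D1, 2 lower and 16 did not pass, and with averaged probe sets 5 were higher. The lower genes were a ligand, Sema3e, at 7.70 to 9.0 in D1 and 9.69 to 10.09 in D2 arrays (-1.27, SE 0.167, adjusted p = 3.19e-06), and the semaphorin co-receptor Nrp1 (-0.94, adjusted p = 1.19e-05). Sema4c was higher in D1 (0.88, adjusted p = 3.03e-05). Of 24 slits, netrins and their receptors 2 were higher (1 without D1 saline replicate 1 or 2 or D2 saline replicate 2 or 3), 6 lower and 16 did not pass. Unc5d, a netrin receptor, lay between 4.79 and 5.94 in D1 arrays and between 6.77 and 7.40 in D2 arrays (-1.68, SE 0.166, adjusted p = 2.92e-08), and the synaptic adhesion proteins Slitrk6 and Slitrk1 went opposite ways (-1.91 and 0.69). The cadherins Cdh22 (1.07) and Cdh11 (-0.80) did so too.

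Among 28 trophic ligands and receptors tested 7 were higher in D1, 5 lower and 16 did not pass, beside 11.9% and 17.1% of all genes. Inhba, the subunit of activin A, lay between 9.13 and 10.26 in D1 arrays and between 7.49 and 8.54 in D2 arrays (1.59, SE 0.149, adjusted p = 1.31e-08). Fst, follistatin, which binds and blocks activin, lay between 7.51 and 8.09 in D1 arrays and between 9.83 and 10.40 in D2 arrays (-2.23, SE 0.143, adjusted p = 1.21e-11). Nrg3, a neuregulin, lay between 7.98 and 8.66 and between 5.88 and 6.77 (1.94, SE 0.13, adjusted p = 2.49e-11). Each of these separated the subtypes without overlap, as did Gfra1, a receptor for GDNF (1.44), and Dlk1 (2.05). Dner, a Notch-related membrane protein, was higher in D1 (1.1), a call lost without D1 saline replicate 2 (0.75, adjusted p = 0.11).

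Most genes of the ribosome and of respiration were lower in D1. Of 45 cytosolic ribosomal protein genes tested 38 were lower in D1, 2 higher and 5 did not pass (median -0.42). The 2 higher fell to 1 or 0 in 12 of the 13 fits with 1 array left out, the exception being D1 cocaine replicate 2. Rpl19 lay between 11.90 and 12.23 in D1 arrays and between 12.39 and 12.77 in D2 arrays, without overlap (-0.55, SE 0.077, adjusted p = 7.92e-06), and Rps28 differed by -0.66. Under saline 36 were lower, with a median of -0.62 against -0.07 over all genes, and under cocaine 11, with a median of -0.20 against 0.00. Over all genes 11.4% were lower under saline and 8.45% under cocaine. For the difference between the drugs 0 of the 45 passed in limma, while 2 passed without D1 cocaine replicate 3 and 5 without D2 cocaine replicate 4. At an unadjusted p under 0.05, 30 were greater under cocaine and 1 smaller, beside 1596 of all 12017 genes in either direction. The cocaine count was 4 without D2 cocaine replicate 2, 20 without D1 cocaine replicate 3 and 22 without D2 cocaine replicate 1, and the saline count was 24 without D1 saline replicate 2. Rpl10a, the ribosomal protein that carries the tag, did not pass (-0.09, SE 0.0648, adjusted p = 0.347).

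Of 73 oxidative phosphorylation genes tested 51 were lower in D1, 0 higher by limma (1 at an unadjusted p under 0.05, and 1 called without D1 cocaine replicate 3) and 22 did not pass (median -0.24), for example Ndufa7, a complex I subunit (-0.55, adjusted p = 6.89e-05). Under saline 48 were lower (median -0.42) and under cocaine 6 (median -0.09), beside 11.4% and 8.45% of all genes. For the difference between the drugs 1 of the 73 passed, Ndufa5 (0.59, adjusted p = 0.0461), named after its values were seen. At an unadjusted p under 0.05, 40 were greater under cocaine, beside 1596 of all 12017 genes in either direction. The count of passing genes stayed at 1 without D1 cocaine replicate 2 or D2 cocaine replicate 2. It was 3 without D1 cocaine replicate 3, 8 without D2 cocaine replicate 4 and 0 in the other 9 fits with 1 array left out. Cyclic loess reduced the combined count to 24 with 3 higher, and leaving out D1 saline replicate 2 reduced it to 32. The count under saline was 15 after cyclic loess and 20 without D1 saline replicate 2. Under cocaine it was 3 without D1 cocaine replicate 1, 2 without D2 cocaine replicate 2 or 4, and 19 without D2 cocaine replicate 1.

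Over all genes 592 were higher (4.93%) and 1370 lower (11.4%) in D1 under saline, 16.3% together, and 1330 were higher (11.1%) and 1015 lower (8.45%) under cocaine, 19.5% together. Of the genes higher in D1 under saline 420 were also higher under cocaine, 70.9% of the saline and 31.6% of the cocaine genes. For the lower genes the overlap was 519, or 37.9% and 51.1%. The difference between the drugs was itself tested, and 17 genes passed (0.141%), 16 with a D1 minus D2 difference that was greater under cocaine (0.133%) and 1, Trap1, that was smaller (0.00832%). Without D1 saline replicate 1, D1 saline replicate 2 or D2 saline replicate 3, 0 genes passed in limma, with 1255, 1110 and 1297 at an unadjusted p under 0.05. Without D2 cocaine replicate 4, 156 passed.

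The genes that passed included the small nucleolar RNA host genes Snhg8, Snhg1 and Gas5. Snhg8 had log2 levels of 9.63 and 9.80 in D1 saline arrays, 11.16 to 11.24 in D2 saline arrays, 10.03 to 10.40 in D1 cocaine arrays and 10.53 to 10.93 in D2 cocaine arrays. It was lower in D1 under saline (-1.5) and by less under cocaine (-0.47), a difference of 1.03 (SE 0.174, adjusted p = 0.0153). Snhg1 was lower in D1 under saline (-0.98, adjusted p = 2.71e-04) and did not pass under cocaine (0.26, adjusted p = 0.167), a difference of 1.24 (SE 0.211, adjusted p = 0.0153). The call of Snhg1 over both drugs (-0.36, adjusted p = 0.0125) ended without D1 saline replicate 2 (-0.33, adjusted p = 0.0673). Such host genes numbered 12 among those tested, a group chosen after its values were seen. Under saline 9 were lower in D1 (median -0.83) and under cocaine 1 (median -0.06), beside 11.4% and 8.45% of all genes. As above, none of these differences between drugs passed without D1 saline replicate 1, D1 saline replicate 2 or D2 saline replicate 3.

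**Figure D5:**
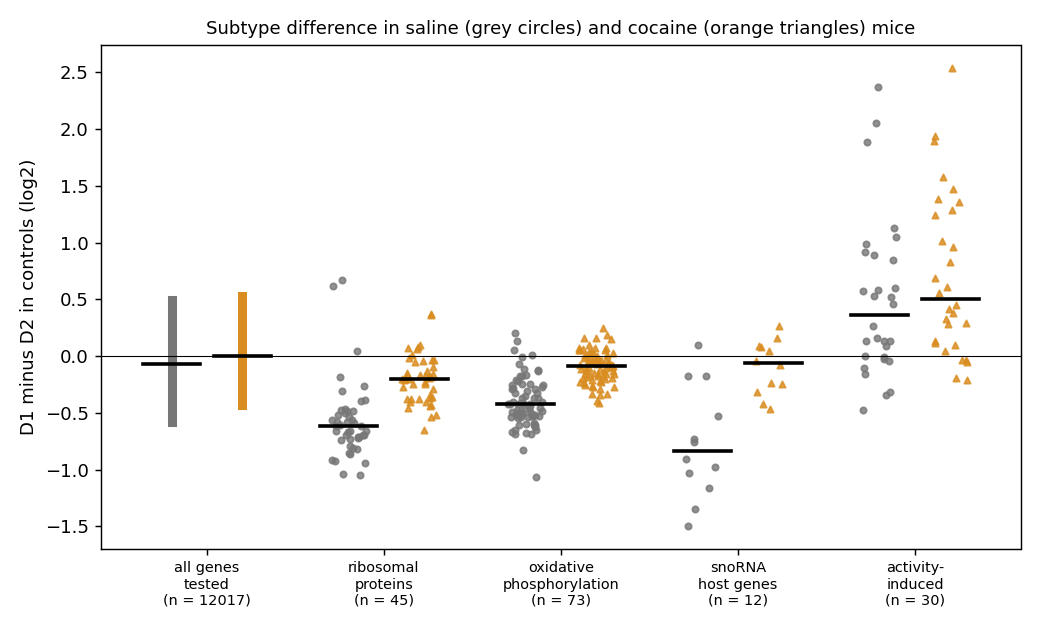
D1 minus D2 difference (vertical axis, log2) in saline mice (grey circles) and cocaine mice (orange triangles) for tested members of 4 gene lists, with the median as a bar, and for all genes tested the range from the 5th to the 95th percentile. Ribosomal protein, oxidative phosphorylation and host gene medians lie at -0.62, -0.42 and -0.83 under saline and at -0.20, -0.09 and -0.06 under cocaine.

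In the mutant mice, whose arrays do not enter the control difference but do enter the filter, the probe set choice and the spread behind its calls, most control calls had the same sign. There 42.4% of all genes were called. Of the 1428 genes higher in D1 controls 1355 (94.9%) had the same sign and 1065 (74.6%) were called higher, beside 16.6% of all genes called higher there, and 11 were called lower. Of the 2052 lower genes 2002 (97.6%) had the same sign and 1642 (80%) were called lower, beside 25.8% of all genes, and 2 were called higher. Isl1 differed by 2.59 in mutants against 3.58 in controls and Zfp521 by 1.82 against 2.61, while Lhx8 differed by -3.85 against -2.75 and Upb1 by -3.69 against -2.89. Ehmt2 itself did not pass between the control subtypes (-0.32, adjusted p = 0.0765). Ehmt2 was lower with the replicate block (-0.31, adjusted p = 0.0321), with control arrays alone (-0.32, adjusted p = 0.0236), with averaged probe sets (-0.23, adjusted p = 0.032), with array weights (-0.35, adjusted p = 0.0347) and without D1 cocaine replicate 2 (-0.37, adjusted p = 0.0426). Of 23 tested H3K9 methylation enzymes and readers 2 were higher in D1, 2 lower and 19 did not pass, with the chromodomain protein Cdyl2 highest in D1 relative to D2 (0.89, SE 0.0712, adjusted p = 7.65e-10). The lower count was 1 in 8 of the 13 fits with 1 array left out, those without D1 saline replicate 1 or 2, D1 cocaine replicate 4, D2 saline replicate 1 or 3, or D2 cocaine replicate 2, 3 or 4.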

How the data were processed

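Per the labels and the submitters' processing notes, the authors deposited log2 values of 45101 probe sets on 27 Affymetrix Mouse 430 2.0 arrays, which are RMA (robust multi-array average) values from Affymetrix Expression Console 1.1; the series' design text names GCOS 1.4 scaled to 150 for the scans. Each gene symbol was read from the probe set of highest mean level across 27 arrays. Probe sets with several gene symbols (932) or no gene symbol (9160) were left out.

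All 27 arrays were fitted with 1 mean per group of subtype, genotype and drug in limma 3.58.1 on R 4.3.3 (lmFit, eBayes), tested on simulated data. The number of arrays limits the precision. The members and gene lists were chosen with earlier results of these data known. Named genes were the 6 markers, up to 15 non-overlapping genes of largest difference per direction, members of short lists (4 of smallest p in long ones), up to 8 genes per drug comparison and direction, the receptors' neighbours, near-binary genes, Ehmt2, Rpl10a and Ttr; not every gene so named is reported here. Alternatives covered probe set choice, filter, scaling, moderation, weights, covariates, a minimum fold, the replicate block and leaving out arrays. Arrays numbered alike were checked for pairing: 6 of 16 pairs deviated together (correlation over 0.1), and the correlations ran from -0.297 to 0.366. Arrays numbered differently were not compared, and the 2 D1 saline arrays deviate from their mean as mirror images. The check therefore cannot show pairing. One D2 mutant cocaine array is a control by its source name but a mutant by its title and genotype, and was grouped as a mutant. Protein sequences were not analysed here.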

Additional observations from a re-analysis of the deposited data

Results flagged for a closer look

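Within the control cocaine groups of 4 arrays, 1 array lay far from the other 3 for some named genes, measured as its gap to the nearest array divided by the group's range. This was so for 18 of 256 checks, and chance gives about 1 in 20.

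D1 cocaine replicate 3 was lowest for Isl1 (gap share 0.869), Gnb1 (0.944), Bcl11b (0.919), Kcnk2 (0.838) and Scn3b (0.889). D1 cocaine replicate 4 was highest for Crh (0.926), Gng4 (0.897) and Unc5d (0.902) and lowest for Rxrg (0.932) and Pde1b (0.891). D1 cocaine replicate 1 was lowest for Rasgrf2 (0.859). D2 cocaine replicate 3 was highest for Slc35d3 (0.846), Sst (0.921) and Ttr (0.86). D2 cocaine replicate 4 was highest for Oprk1 (0.942) and Oprl1 (0.863). D2 cocaine replicate 1 was highest for Slc18a3 (0.909), and D2 cocaine replicate 2 was lowest for Gng2 (0.834).

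The D1 minus D2 difference itself differed between the drugs (limma, adjusted p under 0.05) for 17 genes. Among the named ones, cocaine minus saline was 1.03 for Snhg8, 1.24 for Snhg1, 0.78 for the sialyltransferase gene St6galnac6, 0.78 for the kinesin gene Kifc2, 0.89 for the JNK scaffold gene Mapk8ip2, 0.75 for the phosphomevalonate kinase gene Pmvk, 0.71 for Atxn7l3 and -0.63 for the mitochondrial chaperone gene Trap1. Under the fit of control arrays alone 0 genes passed this comparison in limma, with 1346 at an unadjusted p under 0.05.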

How the results depend on the processing

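The D1 minus D2 count of 3480 stayed within 1.5 times except at a fold of at least 1.5 (155, 94 higher and 61 lower, with 87 under saline, 132 under cocaine and 0 for the difference between drugs, 16 at an unadjusted p under 0.05 in limma) and without D1 saline replicate 2. Leaving out each array in turn gave 2310 to 4083 genes, 946 to 1727 higher and 1364 to 2356 lower, 652 to 2383 under saline, 1780 to 2867 under cocaine and 0 to 156 for the difference between drugs. That last count of 17 was 0 with control arrays alone, 7 with the probe set of largest variance, 9 without a filter, 6 after median centring, 72 with an intensity trend and 595 with array weights, which gave 3452 under saline. The cause was not tested. With the replicate number as a block, though nothing in the labels says that the numbers pair the mice, 3536 genes were called, 1458 higher and 2078 lower. That fit gave 1910 under saline, 2437 under cocaine and 13 for the difference between drugs. Of 110 named genes that were called, 58 lost their call under none of the 30 alternatives, which include a fold of at least 1.5. Among named genes 0 calls reversed in limma. The small number of arrays, 2 for D1 saline, limits the saline comparison.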
